A study of Mus musculus with 24 samples.

Results

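The adrenal glands of wild-type (WT) male mice that had lived without testes for their last 2 months were set against those of intact WT males. These were 8 of the 24 arrays of the series, taken by their titles, with 4 arrays in each group. The gonadectomised mice (WT GDX) and the intact mice (WT intact), like the other mice of the series, were 7 months old and of a mixed sv129 and C57Bl/6 background. RNA came from the whole gland, cortex and medulla together, and was hybridised to Affymetrix mouse gene arrays. Per the labels, WT GDX mouse 1 was Prkar1a+/+ without Cre and mTmG/mTmG, and mouse 2 was Prkar1a+/+ with cre/+ and mTmG/+. WT GDX mouse 3 was Prkar1a+/+ with cre/+ and mTmG/mTmG, and mouse 4 was Prkar1a fl/+ with cre/+ and mTmG/mTmG. All 4 WT intact mice were Prkar1a fl/fl without Cre and mTmG/mTmG. Cre is made from the Cyp11b2 locus, whose gene encodes aldosterone synthase, and mTmG is a reporter that changes its fluorescent protein where Cre has acted. In this comparison 3 of 4 WT GDX mice carried Cre and 0 of 4 WT intact mice did, so gonadectomy and Cre cannot be told apart in WT GDX arrays 2 to 4. No WT GDX mouse was Prkar1a fl/fl and all WT intact mice were. Gonadectomy and the floxed alleles therefore cannot be told apart in any WT GDX array, array 1 included. The series also holds WT females (Prkar1a fl/+ with cre/+ and mTmG/mTmG) and gonadectomised and intact males without Prkar1a in Cre-expressing cells (KO GDX and KO intact). All KO males were Prkar1a fl/fl with cre/+ and mTmG/mTmG, so that the KO groups did not differ in genotype.

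The mouse adrenal cortex makes corticosterone in the zona fasciculata and aldosterone in the outer zona glomerulosa. Young mice have a further layer next to the medulla, the X-zone, which regresses in males at puberty under testicular androgen and persists longer in females. The testes are the main source of androgen in the male mouse, since the mouse cortex itself makes little. The gland is therefore one of the organs that differ between the sexes, and removal of the testes takes away androgen while pituitary gonadotropins rise.

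Expression was read as log2 RMA levels, in which a difference of 1 is a 2-fold change. Of 14411 genes with a log2 level over 5 in at least 4 arrays, 648 were called different between WT GDX and WT intact males (4.5%; limma, Benjamini-Hochberg adjusted p of 0.05). Of these 280 were higher in WT GDX (1.94% of the genes tested) and 368 were lower (2.55%). A change of at least 2-fold was found for 61 called genes (0.423%), 45 of them higher (0.312%) and 16 lower (0.111%). The median difference over all genes tested was -0.01. Few genes thus changed by much, and those that did were mostly higher without testes. The number of calls depended on the arrays used: 149 genes were called from the 8 WT arrays alone, and 292 to 788 when 1 array was left out. It was 313 without WT GDX array 2, 355 without WT GDX array 3, and 386, 306 and 292 without WT intact array 2, 3 and 4. With Cre as a term, the model sets WT GDX array 1 (Prkar1a+/+) alone against the intact arrays (fl/fl), without a replicate. All 648 genes kept their sign there, which is no separate support, because the same arrays helped to choose them.

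**Figure D1:**
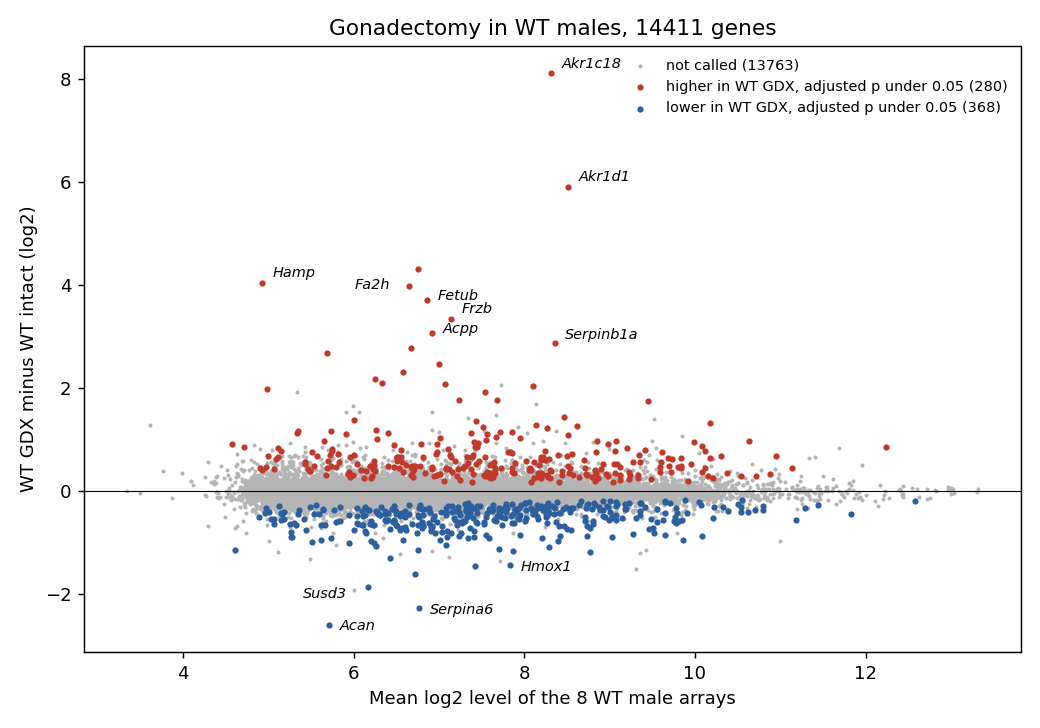
Each point is 1 of 14411 genes, with the mean log2 level of the 8 WT male arrays on the horizontal axis and WT GDX minus WT intact (log2) on the vertical axis. Red points were called higher in WT GDX (280), blue points lower (368), and grey points were not called. Akr1c18 (8.11) and Akr1d1 (5.91) stand apart from all other genes.

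The largest change in the gland was in a steroid-inactivating enzyme of the X-zone. Akr1c18, an aldo-keto reductase that inactivates progesterone, had log2 levels of 12.35, 12.43, 12.04 and 12.66 in WT GDX arrays, against 4.51, 4.26, 4.10 and 4.19 in WT intact arrays. It was bright in every gonadectomised gland and lay below the level of 5, too dim to read, in every intact one. The difference was 8.11 ± 0.73 (log2 ± standard error, limma adjusted p 1.28e-06), and its size is uncertain because of the dim intact level. Thrb, the thyroid hormone receptor beta, which marks the X-zone, had 8.97, 9.31, 8.81 and 9.16 in WT GDX, against 8.64, 7.86, 7.64 and 7.70 in WT intact arrays (1.10 ± 0.16, adjusted p 0.000444). Its arrays did not overlap either. The other X-zone markers tested, Sbsn (0.08, adjusted p 0.925) and Sult1e1 (-0.30, adjusted p 0.472), were not called, so 2 of 4 tested members of that list rose and 0 fell. The list also holds Pik3c2g and Car6, which were not tested. Both were too dim to read in all WT GDX and WT intact arrays, at most 4.97 and 3.96. Over all genes tested 1.94% were called higher. The lists were chosen with earlier results of these data known, so the called share of this list and of those below is no separate support. With whole-gland RNA, more cells of a type and more RNA per cell cannot be told apart.

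The sequence just before Akr1c18 is shown because this gene changed most. The promoter, from 250 bases before to 50 bases after the start site, lies at chr13:4150597-4150896 on the minus strand (RefSeq, GRCm38.p6). It was searched on both strands for AGAACA, the hexamer bound by androgen and glucocorticoid receptors, and for AAGGTCA, the core of the site bound by NR5A1, the steroidogenic transcription factor. Neither set of letters is in this window. Cyp2f2, which also rose, is shown beside it because its promoter (chr7:27119705-27120004, plus strand) holds both, marked in capitals.
Akr1c18: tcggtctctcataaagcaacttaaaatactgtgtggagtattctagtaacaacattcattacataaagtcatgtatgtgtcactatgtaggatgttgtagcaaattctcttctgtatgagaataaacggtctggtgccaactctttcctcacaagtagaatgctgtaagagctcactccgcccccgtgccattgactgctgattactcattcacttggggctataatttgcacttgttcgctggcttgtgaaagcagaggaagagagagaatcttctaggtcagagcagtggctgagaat
Cyp2f2: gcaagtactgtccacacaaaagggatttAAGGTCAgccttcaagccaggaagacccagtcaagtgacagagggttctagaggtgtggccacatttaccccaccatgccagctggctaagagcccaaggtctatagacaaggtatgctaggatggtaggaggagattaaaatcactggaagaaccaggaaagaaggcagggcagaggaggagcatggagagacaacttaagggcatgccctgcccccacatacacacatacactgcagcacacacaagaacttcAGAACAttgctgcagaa
AGAACA or its complement is present in 12.7% of the 11195 promoters matched to tested genes, in 15.8% of those of 215 genes called higher and in 12.7% of those of 283 called lower. AAGGTCA is present in 3.14%, 4.19% and 4.59% of the same promoters. The promoters of 18 of the 30 most changed named genes were matched, 9 among the rises and 9 among the falls, with AGAACA in 3 and AAGGTCA in 1 of each. A match is a string of letters and no evidence of binding.

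Akr1d1, the steroid 5-beta reductase, had log2 levels of 11.36, 11.65, 11.34 and 11.52 in WT GDX arrays, against 8.38, 5.08, 4.51 and 4.27 in WT intact arrays (5.91 ± 0.69, adjusted p 2.57e-05). WT intact array 1 stood well above the other intact arrays and still below every WT GDX array. Cyp2f2, a cytochrome P450, had 7.48, 9.94, 8.05 and 6.77 in WT GDX arrays, against 4.89, 5.30, 6.03 and 4.90 in WT intact arrays (2.78 ± 0.56, adjusted p 0.00651). Its second probe set moved less, by 0.44. Of 12 tested genes of androgen synthesis and metabolism 3 rose and 0 fell, with a median of 0.25. That is 25% called higher, beside 1.94% of all genes tested, in a list chosen with earlier results of these data known. The third was Hsd17b1 (0.32 ± 0.09, adjusted p 0.0368), an enzyme that activates estrogens, whose call was lost without WT GDX array 2 or without WT intact array 2, 3 or 4 (adjusted p up to 0.156). Cyp17a1, which makes androgen precursors, was not called (0.36) and stood at 7.64 in WT GDX array 1, against 4.34 to 5.37 in the other 7 arrays. Hsd11b1, which activates glucocorticoids, was not called either (0.45). Fa2h, which adds a hydroxyl group to fatty acids of sphingolipids, had 7.15, 9.71, 8.45 and 9.27 in WT GDX arrays, against 4.72, 4.54, 4.94 and 4.42 in WT intact arrays (3.99 ± 0.40, adjusted p 4e-06). The intact arrays all lay below the readable level, and the Cre-free WT GDX array 1 was the lowest of the gonadectomised ones.

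Several secreted proteins rose as well. Frzb, a secreted protein that binds and holds WNT ligands, had log2 levels of 9.29, 8.16, 8.83 and 8.99 in WT GDX arrays, against 6.02, 5.57, 5.16 and 5.12 in WT intact arrays (3.35 ± 0.31, adjusted p 1.32e-06). Fetub, fetuin-B, a plasma inhibitor of a protease that hardens the egg coat, had 7.92, 9.82, 8.04 and 9.08 in WT GDX arrays, against 4.96, 4.88, 4.74 and 5.43 in WT intact arrays (3.71 ± 0.41, adjusted p 1.34e-05). In both genes the groups were far apart. Hamp, hepcidin, the liver hormone that lowers iron uptake, had 4.57, 8.85, 7.20 and 7.19 in WT GDX arrays, against 2.97, 2.48, 3.56 and 2.59 in WT intact arrays (4.05 ± 0.82, adjusted p 0.00648). All intact arrays, and the Cre-free WT GDX array 1, were too dim to read, and the difference was 1.67 (adjusted p 0.783) with Cre as a term.

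Acpp, prostatic acid phosphatase, had log2 levels of 8.27, 8.52, 7.91 and 9.14 in WT GDX arrays, against 5.48, 5.34, 5.48 and 5.25 in WT intact arrays (3.08 ± 0.26, adjusted p 6.13e-07). In the prostate this gene is known as a product of androgen-responsive epithelium. Mme, neprilysin, a peptidase of the cell surface, had 7.63, 9.21, 9.10 and 8.06 in WT GDX arrays, against 5.65, 7.89, 7.17 and 5.59 in WT intact arrays (1.93 ± 0.45, adjusted p 0.0178). Its groups overlapped, and its call was lost without WT GDX array 2 or 3 or WT intact array 4 (adjusted p up to 0.0809). Of 19 tested genes of the androgen response list, drawn from genes that androgens induce in other organs, Acpp and Mme rose and Slc45a3, a prostate transporter, fell (-0.56, adjusted p 0.011, or 0.0504 without WT GDX array 2). The share called was 15.8%, beside 4.5% of all genes tested. The list median was 0.11, and Fkbp5 (-0.43), a co-chaperone induced by androgens and glucocorticoids, was not called.

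The other 7 of the 15 largest rises, ranked among called genes with a full symbol and no overlap between the groups, were of mixed function. Serpinb1a, an inhibitor of neutrophil proteases, had log2 levels of 10.20, 9.59, 9.49 and 9.91 in WT GDX arrays, against 9.18, 6.74, 6.05 and 5.68 in WT intact arrays (2.89 ± 0.54, adjusted p 0.00408). WT intact array 1 again lay closest to the gonadectomised glands. Vmn1r3, of the vomeronasal receptors, differed by 2.68, Cd1d1, which presents lipids to T cells, by 2.47 and Prr16 by 2.31. Ajap1, a protein of adherens junctions, differed by 2.18, Vnn3, of the vanin family, by 2.11 and Car8, a carbonic anhydrase relative, by 2.08. Adjusted p was at most 0.00138 for the last 5 of these. Vmn1r3 had an adjusted p of 0.0233, and its call was lost without WT GDX array 3 or 4 or WT intact array 2, 3 or 4 (up to 0.0875). All 15 of the largest rises had no overlap between the groups, as the rule for naming them required; over all genes tested, 9.29% had none.

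**Figure D2:**
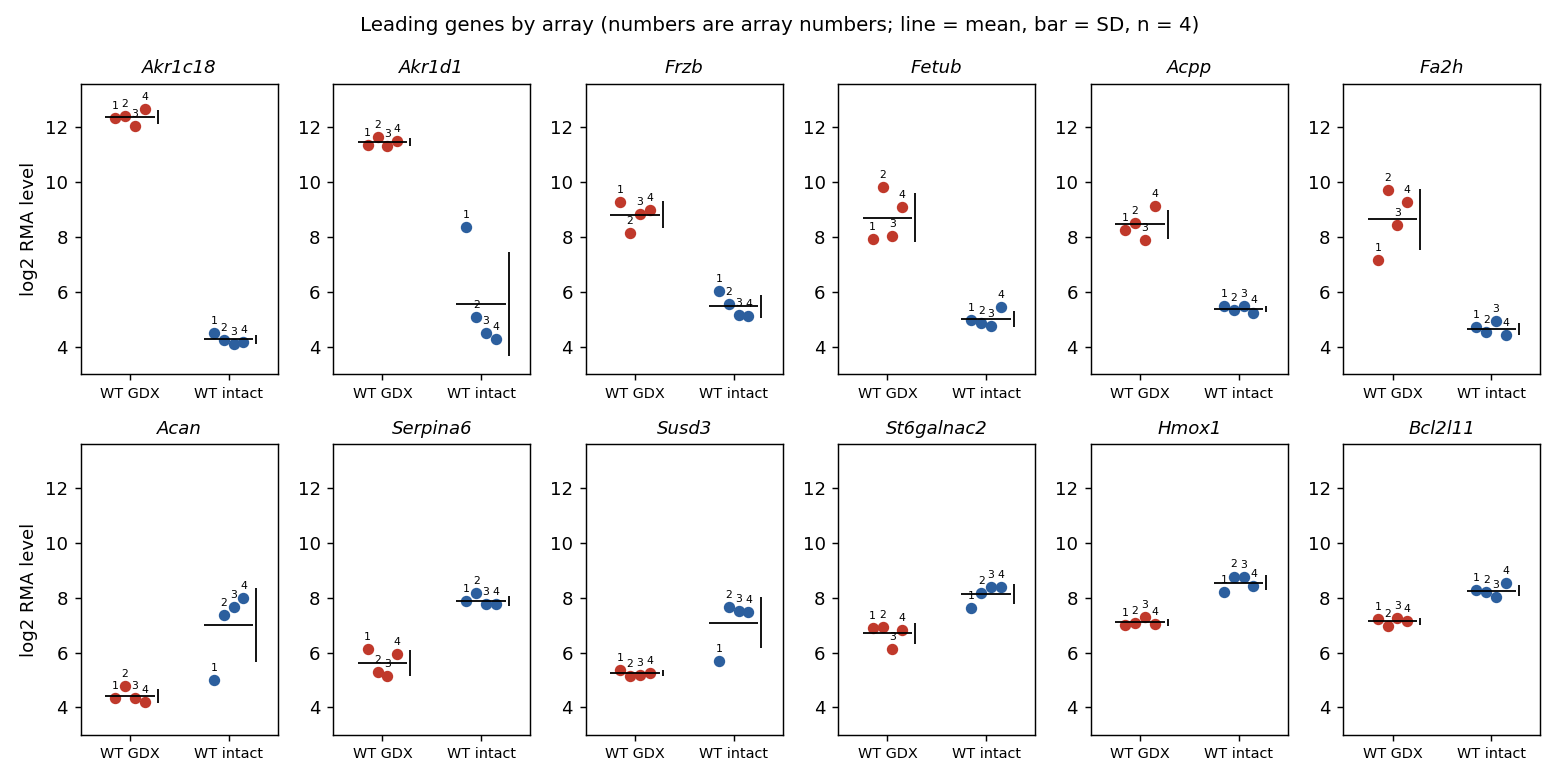
Log2 RMA level of 12 genes in each WT GDX array (red, left) and each WT intact array (blue, right), with array numbers, the mean as a line and the SD as a bar (n = 4 per group). The upper row rose and the lower row fell, and WT intact array 1 lies towards the gonadectomised arrays for Akr1d1, Acan and Susd3.

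The largest falls were in a matrix proteoglycan and in a binding protein of corticosterone. Acan, aggrecan, had log2 levels of 4.36, 4.79, 4.34 and 4.20 in WT GDX arrays, against 5.01, 7.36, 7.67 and 7.98 in WT intact arrays (-2.59 ± 0.43, adjusted p 0.00138). It was too dim to read in every gonadectomised gland, so the size is uncertain, and WT intact array 1 stood near them. No other gene among 25 tested of the extracellular matrix list was called. Serpina6, corticosteroid-binding globulin, which carries corticosterone in blood, had 6.12, 5.29, 5.16 and 5.95 in WT GDX arrays, against 7.89, 8.16, 7.77 and 7.78 in WT intact arrays (-2.27 ± 0.24, adjusted p 5.94e-06). The groups were clearly apart. Hmox1, heme oxygenase, which breaks down heme, had 7.01, 7.09, 7.30 and 7.05 in WT GDX arrays, against 8.21, 8.78, 8.76 and 8.44 in WT intact arrays (-1.44 ± 0.16, adjusted p 1.43e-05).

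Susd3, a sushi domain protein, had log2 levels of 5.38, 5.14, 5.18 and 5.27 in WT GDX arrays, against 5.71, 7.68, 7.51 and 7.49 in WT intact arrays (-1.85 ± 0.30, adjusted p 0.00121). As for Acan, intact array 1 lay near the gonadectomised arrays. Among enzymes that add sialic acid to glycans, St6galnac2 fell (-1.44 ± 0.19, adjusted p 0.000103), and so did St8sia5 (-1.61 ± 0.37, adjusted p 0.0156, or up to 0.0604 without WT GDX array 3 or WT intact array 4). The second probe set of St8sia5 moved by -0.22. Bcl2l11, the cell death protein BIM, had 7.22, 6.96, 7.25 and 7.17 in WT GDX arrays, against 8.27, 8.23, 8.03 and 8.53 in WT intact arrays (-1.12 ± 0.17, adjusted p 0.000533). Among the 15 largest falls by the same rule were the amino acid transporters Slc7a2 (-1.16) and Slc7a4 (-0.99). The ammonia transporter Rhcg (-1.06) and the potassium channel Kcnk1 (-0.97) were there too. The rest were Prr15 (-1.14), the chromatin remodeller Smarca1 (-1.08), the Rac regulator Chn2 (-1.04) and the phosphatase subunit Ppp4r4 (-1.01). With Cre as a term the difference was -0.58 for Slc7a2, -0.56 for Smarca1, -0.67 for Rhcg and -1.06 for St8sia5, none of them called. Adjusted p without that term lay at or below 0.0196 for these 8 transporters, channels and others, and the call of Rhcg was lost without WT GDX array 3 or WT intact array 4 (up to 0.0821).

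Of these 30 genes, 22 were also called from the 8 WT arrays alone. Serpinb1a, Cyp2f2, Acan, Susd3, Slc7a2, Prr15, Smarca1 and Kcnk1 were not (adjusted p 0.0531 to 0.0682). With Cre as a term 22 of the 30 were not called, and 8 were: Akr1c18, Akr1d1, Fa2h, Frzb, Acpp, Prr16, Serpina6 and Hmox1. Their differences in that fit were 8.08, 5.80, 2.50, 3.82, 2.88, 1.94, -1.78 and -1.54, in that order. That fit sets 1 Cre-free gonadectomised gland against the 4 Cre-free intact glands and assumes that the lone array varies like the other groups, so its p-values carry no replicate check of that gland. The gonadectomised gland was Prkar1a+/+ and the intact glands were fl/fl, so that fit does not separate gonadectomy from the floxed alleles.

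Markers of corticosterone synthesis stayed bright in both groups. Of 13 tested genes of the steroidogenic core 2 rose and 1 fell (23.1%, beside 4.5% of all genes tested), with a median of 0.05. Star, which moves cholesterol into mitochondria (-0.05), Cyp11a1, which cleaves the cholesterol side chain (-0.15), Cyp21a1 (0.05), Cyp11b1, which makes corticosterone (0.01), and the ACTH receptor Mc2r (-0.06) were not called. Scarb1, the receptor that takes up cholesterol from lipoproteins, had log2 levels of 11.51, 11.56, 11.53 and 11.82 in WT GDX arrays, against 12.08, 12.12, 11.93 and 12.06 in WT intact arrays (-0.44 ± 0.09, adjusted p 0.00836). The groups did not overlap. Lipe, the hormone-sensitive lipase that frees stored cholesterol, rose by 0.53 (adjusted p 0.026, or up to 0.112 without WT GDX array 2 or 3 or WT intact array 3 or 4). Nr5a1, the transcription factor that drives steroidogenic genes, rose by 0.45 (adjusted p 0.0439). Its call was lost without WT GDX array 2, 3 or 4 or WT intact array 2, 3 or 4 (up to 0.182). Nr0b1, a repressor partner of NR5A1, had 8.46, 5.37, 8.26 and 8.09 in WT GDX arrays, against 7.75, 5.92, 6.04 and 6.28 in WT intact arrays, and was not called (1.05, adjusted p 0.378). WT GDX array 2 and WT intact array 1 each stood apart from their groups.

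Markers of the zona glomerulosa were on the low side without any call. Of 11 tested members 9 were lower and 2 higher in WT GDX, 0 were called, and the median was -0.36. Of all 14411 genes tested 7689 were lower. Cyp11b2 had log2 levels of 11.42, 10.35, 9.80 and 10.46 in WT GDX arrays, against 11.79, 11.01, 11.55 and 11.54 in WT intact arrays (-0.97 ± 0.36, adjusted p 0.137). The Cre-free WT GDX array 1 lay within the intact range and the 3 Cre-carrying arrays lay below it. Without array 1 the difference was -1.27 and passed the test (adjusted p 0.0417), and with Cre as a term it was -0.06 (adjusted p 0.994). Hsd3b6, a glomerulosa steroid dehydrogenase, had 9.59, 8.73, 8.46 and 8.65 in WT GDX arrays, against 9.03, 10.09, 9.93 and 10.91 in WT intact arrays (-1.14, adjusted p 0.337). Kcnk9, a potassium channel that sets the resting potential of glomerulosa cells, differed by -0.80 (adjusted p 0.0973, or 0.00502 without WT intact array 1). Within 5 Mb of Cyp11b2, 2 of 143 tested genes were called, which is 1.4%, beside 4.5% of all genes tested. Both were lower in WT GDX, the surface protein gene Lynx1 (-1.17) and Them6 (-0.67). Near Prkar1a, 1 of 70 was called (1.43%), the transporter Abca5 (-0.89). These 3 genes were chosen after their values were seen.

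Signalling genes were called in both directions. Over all genes tested 1.94% were called higher and 2.55% lower, and 7689 of 14411 had a lower mean in WT GDX. Among 21 tested WNT ligands, R-spondins and inhibitors Frzb and Lgr4, an R-spondin receptor (0.65 ± 0.11, adjusted p 0.00138), rose and 0 fell. Among 14 tested targets of WNT signalling 12 were lower in WT GDX, 0 rose and 1 fell, with a median of -0.24. That gene was Lef1, a transcription factor of the pathway, with 7.33, 7.05, 7.11 and 6.82 in WT GDX arrays, against 7.47, 7.48, 7.79 and 7.58 in WT intact arrays (-0.50 ± 0.12, adjusted p 0.0154, or up to 0.0638 without WT GDX array 4 or WT intact array 3). Axin2 (-0.31) and Ccnd1 (-0.38) were not called. Cyp11b2, from whose locus Cre is made, is also on this list and was not called (-0.97, or -0.06 with Cre as a term). Among 26 tested genes of protein kinase A and of cyclic nucleotide turnover 2 rose and 2 fell. Pde7a, a cyclic AMP phosphodiesterase, had 9.02, 8.53, 8.90 and 9.08 in WT GDX arrays, against 8.57, 7.55, 7.04 and 7.46 in WT intact arrays (1.23 ± 0.22, adjusted p 0.0031). WT intact array 1 lay just above WT GDX array 2, and a second probe set moved by 0.08. Pde8b, another cyclic AMP phosphodiesterase of the cortex, rose by 0.57 (adjusted p 0.00605).

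Pde5a, a cyclic GMP phosphodiesterase, had log2 levels of 9.22, 9.10, 8.95 and 9.21 in WT GDX arrays, against 9.71, 9.94, 10.05 and 9.98 in WT intact arrays (-0.80 ± 0.11, adjusted p 0.000178). Pde10a, which degrades both nucleotides, also fell by 0.80 (adjusted p 0.0155, or up to 0.0647 without WT GDX array 2 or WT intact array 2 or 3). Prkar1a itself was not called, with 8.94, 8.92, 8.73 and 8.59 in WT GDX arrays, against 8.89, 8.72, 8.75 and 8.91 in WT intact arrays (-0.02 ± 0.23, adjusted p 0.974). Its sign turned in 6 of the alternatives. Among 20 tested CREB and immediate early targets Fosl2 rose (0.64, adjusted p 0.0157) and Jun fell (-0.58, adjusted p 0.0315). That is 10%, beside 4.5% of all genes tested. The call of Fosl2 was lost without WT GDX array 2 or WT intact array 2 or 3 (up to 0.0638), and that of Jun without any 1 of 6 arrays, WT GDX arrays 2, 3 and 4 and WT intact arrays 2, 3 and 4 (up to 0.132). Nr4a1, a nuclear receptor induced by ACTH, had 9.34, 10.34, 10.57 and 10.63 in WT GDX arrays, against 8.77, 9.07, 7.69 and 9.72 in WT intact arrays (1.41, adjusted p 0.0912, or 0.0456 without WT GDX array 1).

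Of 20 tested members of the proliferation list 2 passed the test, both higher in WT GDX, and 18 did not. That is 10%, beside 4.5% of all genes tested. The list median was 0.37, with 19 members on the higher side, while 7689 of all 14411 genes tested were on the lower side. Neither call was made from the 8 WT arrays alone (adjusted p 0.149 for Mcm6 and 0.0688 for Ccna2). Mcm6, a subunit of the replication helicase, had log2 levels of 6.44, 7.47, 6.84 and 6.37 in WT GDX arrays, against 6.37, 6.13, 5.11 and 5.49 in WT intact arrays (1.01 ± 0.27, adjusted p 0.0354). Its groups met at 6.37, and its call was lost without WT GDX array 2 or 3 or WT intact array 3 or 4 (up to 0.15). Ccna2, cyclin A, rose by 0.89 (adjusted p 0.048) and was called in only 1 of the 8 fits that leave out an array, that without WT GDX array 4 (up to 0.15 in the others). Mki67, a marker of dividing cells, had 7.53, 7.68, 7.03 and 7.16 in WT GDX arrays, against 6.63, 6.56, 6.41 and 6.07 in WT intact arrays, without overlap, and was not called (0.93, adjusted p 0.0885). From the 8 WT arrays alone it passed (0.0392).

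Beside 4.5% of all genes, the share called was 20% of the clock list, 15% of the glutathione and oxidative stress list, 12.5% of the glucocorticoid response list, 10% of the cholesterol list and 4.55% of the fatty acid list. Each share rests on 1 to 3 genes. Of 20 tested genes of cholesterol synthesis and uptake 1 rose and 1 fell: Hmgcs1, an early enzyme of the pathway (0.96, adjusted p 0.0188, or up to 0.0832 without WT GDX array 2 or WT intact array 3 or 4), and Scarb1. Of 22 tested genes of fatty acid and lipid droplet metabolism 19 were higher and only Fa2h was called, with a median of 0.35. Of all 14411 genes tested 7689 were lower. The mean of the fatty acid list was 9.31, 10.21, 10.57 and 9.61 in WT GDX arrays, against 8.99, 9.96, 9.69 and 9.0 in WT intact arrays. The mean of the adipocyte markers was 8.18, 9.55, 10.44 and 8.37 in WT GDX arrays, against 7.43, 9.62, 9.01 and 7.37 in WT intact arrays, with 11 of 12 markers higher in WT GDX and 0 called. Arrays 2 and 3 were the highest of both groups for both lists, and the part of adipocyte RNA in this list was not tested. Of 20 tested glutathione and oxidative stress genes Mgst1, a glutathione transferase (0.70 ± 0.11, adjusted p 0.000533), and Gsr, glutathione reductase (0.62 ± 0.13, adjusted p 0.00926), rose and Hmox1 fell. Of 15 clock genes Per1 rose (0.60, adjusted p 0.0424) while its activators Arntl (-0.67, adjusted p 0.0169) and Npas2 (-0.65, adjusted p 0.034) fell. These 3 clock calls were each lost without WT GDX array 2 or 3 or WT intact array 3, and those of Per1 and Npas2 also without WT intact array 2 (adjusted p up to 0.156, 0.0721 and 0.133). The call of Per1 was lost without WT GDX array 4 too, and that of Npas2 without WT GDX array 1. The hour at which glands were taken is not known here. Per1 and Cdkn1a, a cell cycle inhibitor (0.77, adjusted p 0.0403, lost in 6 of 8 fits that leave out an array), were the 2 of 16 glucocorticoid response genes that rose. The 6 fits were those without WT GDX array 2, 3 or 4 or WT intact array 1, 3 or 4 (up to 0.142).

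In the remaining lists the growth inhibitor ligand trap Fstl3 (-0.39, of 24 inhibin, activin and BMP genes), the retinoic acid receptor Rara (-0.33, of 15 retinoid genes) and the imprinted gene Mest (-0.54, of 17) fell. The shares called in these lists were 4.17%, 6.67% and 5.88%, near the 4.5% of all genes tested. The call of Fstl3 was lost without WT GDX array 3 or WT intact array 3 or 4. Thrb was the only one called of 12 steroid and pituitary hormone receptors, and Scarb1 of 7 zona fasciculata markers. No call was made among 14 gonadal-like, 19 hedgehog and capsule, 13 interferon response or 6 MHC class II genes. Gata4, a gonadal transcription factor, differed by 0.15 (adjusted p 0.626).

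**Figure D3:**
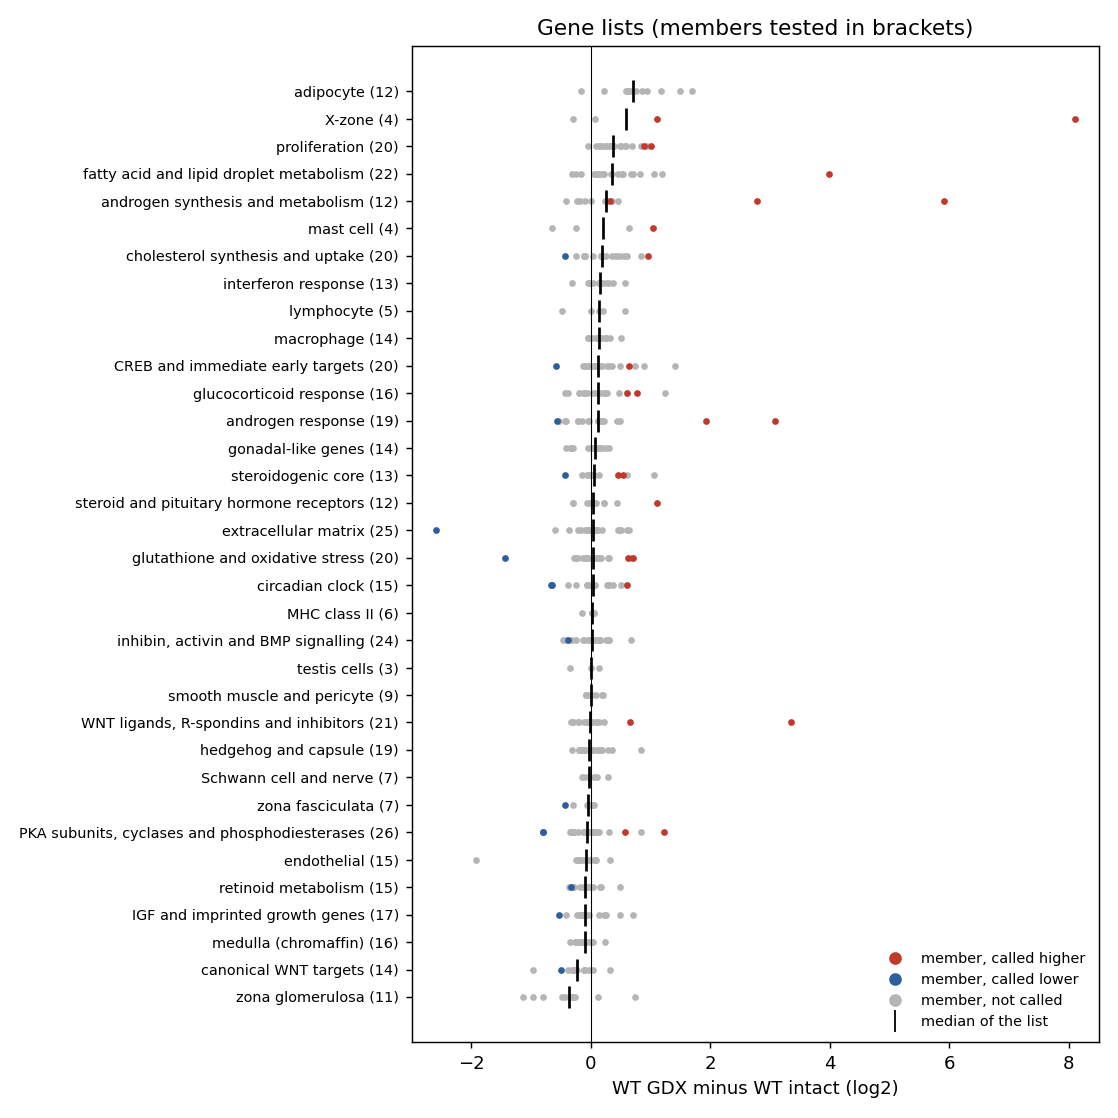
WT GDX minus WT intact (log2) of each tested member of 34 gene lists, red where called higher, blue where called lower and grey where not called, with the list median as a black bar. Most lists have a median near 0, and single genes such as Akr1c18, Akr1d1, Fa2h, Frzb, Acpp and Acan lie far from their list.

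Markers of other cells in the gland were measured beside these results. No marker of medulla, endothelium, macrophages, lymphocytes, Schwann cells, smooth muscle or testis was called, beside 4.5% of all genes tested. The mean of the medulla list was 9.53, 8.94, 8.84 and 9.31 in WT GDX arrays, against 8.998, 9.44, 9.18 and 9.43 in WT intact arrays, and the groups overlapped. The adipocyte markers, whose means by array are given above, had a median of 0.70. With their mean as a term 563 genes were called, 293 higher and 270 lower, so that 52% of calls were higher, against 43.2% without it. Of 10 mast cell markers only 4 were tested. Of these Cpa3, a mast cell protease, was called (1.03, adjusted p 0.039), which is 25% from 1 gene, beside 4.5% of all genes tested. Its call was lost without WT GDX array 2 or 3 or WT intact array 2, 3 or 4 (up to 0.141). Hdc, which makes histamine, differed by -0.65 and was not called (adjusted p 0.0885). Apln, the endothelial peptide apelin, had 5.08, 4.42, 5.29 and 5.39 in WT GDX arrays, against 5.89, 7.45, 7.23 and 7.30 in WT intact arrays, and was not called (-1.92, adjusted p 0.0614, or 0.0275 without WT intact array 1).

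WT intact array 1 lay towards the gonadectomised arrays in many of the called genes. The mean of the 280 genes called higher was 7.94, 8.13, 7.996 and 8.04 in WT GDX arrays, against 7.49, 7.23, 7.14 and 7.16 in WT intact arrays. The Xist level was 3.14 to 3.54 in these 8 arrays and averaged 10.31 in WT females, and the Y-linked gene Eif2s3y stood at 8.79 to 9.07 against 4.30 in WT females. Pearson's r across probe sets was 0.989 to 0.993 between WT GDX arrays, 0.99 to 0.994 between WT intact arrays and 0.983 to 0.992 between arrays of different groups.

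The imprinted stretch of chromosome 12 between Dlk1 and Dio3 was lower as a block, which was noticed after the values were seen. Its noncoding RNAs, among them Meg3, Rian and a large cluster of microRNAs, are made from the maternal chromosome, and its protein genes Dlk1 and Dio3 from the paternal one. The probe sets lie on microRNA genes and are not known to measure the mature microRNAs. Mature sequences of 7 are shown to identify the genes, written with the seed (bases 2 to 8, which pair with target RNAs) in capitals (RefSeq, GRCm38.p6, chromosome 12, plus strand). The first pair shares a seed and the second pair shares another.
miR-453: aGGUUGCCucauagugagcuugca
miR-496a-5p: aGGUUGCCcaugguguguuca
miR-370-5p: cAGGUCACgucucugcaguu
miR-1193-3p: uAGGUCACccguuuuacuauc
miR-487b-5p: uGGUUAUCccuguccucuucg
miR-329-3p: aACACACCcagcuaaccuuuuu
miR-382-5p: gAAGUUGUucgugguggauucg
The 13 microRNA genes called there have 24 mature sequences with 22 different seeds.

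All 42 tested genes of the stretch were lower in WT GDX and 17 were called, which is 40.5% beside 2.55% of all genes called lower. Of all 14411 genes tested 7689 were lower, as were 83 of the 156 tested microRNA genes elsewhere. The median of the stretch was -0.54. Of the 33 microRNA genes among them 13 were called, whereas 7 of 156 tested microRNA genes elsewhere were called lower (4.49%, median -0.02). Genes of the stretch can share 1 long transcript, so they are not independent of each other. Rian, a long noncoding RNA, had log2 levels of 10.22, 9.59, 9.95 and 10.07 in WT GDX arrays, against 10.37, 10.47, 10.59 and 10.45 in WT intact arrays (-0.51 ± 0.11, adjusted p 0.0114). Mir453 had 8.44, 7.70, 8.30 and 8.11 in WT GDX arrays, against 8.79, 9.01, 8.95 and 8.75 in WT intact arrays (-0.74 ± 0.15, adjusted p 0.00596). In both genes WT GDX array 2 was the lowest and array 1 the closest to the intact arrays, and the groups did not overlap. Mir1193 (-0.80, adjusted p 0.0154) and Mir487b (-0.80, adjusted p 0.012) fell most among the called genes. The call of both was lost without WT GDX array 2, and that of Mir1193 also without WT GDX array 3 or WT intact array 2 (up to 0.0646). Meg3 (-0.10, adjusted p 0.716) and Dlk1, a growth regulator of the paternal chromosome (-0.15, adjusted p 0.708), were not called.

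The mean over the 33 microRNA genes was 6.68, 6.03, 6.39 and 6.42 in WT GDX arrays, against 6.83, 6.98, 7.04 and 6.79 in WT intact arrays. Every gonadectomised gland lay below every intact gland, the Cre-free array 1 by the least. Without WT GDX array 2, whose mouse was mTmG/+, 39 of 42 genes were lower, 2 were called and the median was -0.39. The count also fell to 5 without WT intact array 3, to 7 without WT GDX array 3 or WT intact array 2, and to 3 from the 8 WT arrays alone. With Cre as a term 37 of 42 were lower, 0 were called and the median was -0.20. With the medulla list mean as a term 18 were called and the median was -0.46. In KO males, whose gonadectomised and intact groups both carried Cre, 42 of 42 genes were lower after gonadectomy, 27 were called (background 8.59%), and the median was -0.56. In KO males 5 were called with the medulla list mean as a term, with 40 of 42 lower and a median of -0.36, and 16 without KO GDX array 2 and 17 without KO intact array 2.

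**Figure D4:**
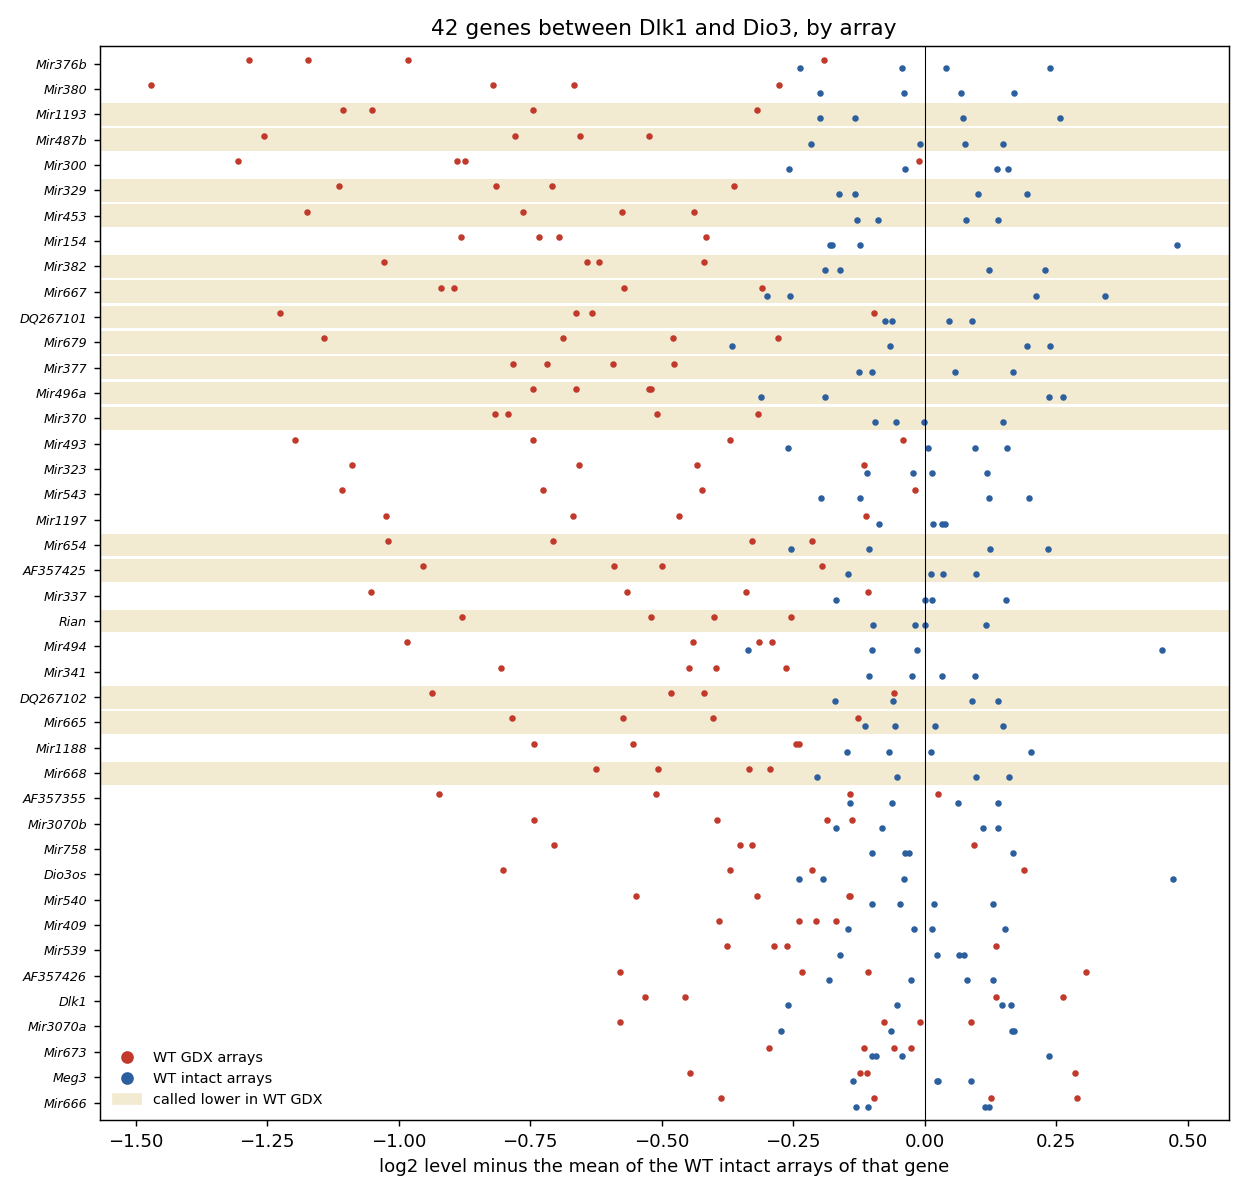
Each row is 1 of 42 tested genes between Dlk1 and Dio3, with the log2 level of each WT GDX array (red) and each WT intact array (blue) minus the mean of the intact arrays of that gene. Shaded rows were called lower in WT GDX (17), and in most rows the red points lie to the left of the blue ones.

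The KO males gave a second comparison of gonadectomised with intact glands, from mice that all carried Cre. Its differences come from other arrays than the WT differences, but the test of each draws its spread from all 24 arrays, so the calls are not independent. There 2225 genes were called (15.4%), 987 higher (6.85%) and 1238 lower (8.59%). Of the 280 genes that rose in WT GDX, 270 were higher in KO GDX and 185 were called higher, which is 66.1% of the WT rises and 18.7% of the KO rises. Of the 368 that fell in WT GDX, 348 were lower in KO GDX and 216 were called lower, or 58.7% of the WT falls and 17.4% of the KO falls. Over all genes tested 47% were higher and 53% lower in KO GDX, and 67.8% had the same sign in both comparisons. None was called in opposite directions. The KO count was 1374 without KO GDX array 3, 1409 without KO intact array 2 and 1461 without KO intact array 3. Of 16 medulla markers 6 fell in KO GDX, with a median of -0.42, and 879 genes were called in KO males with that list mean as a term. The part of the medulla in the KO calls was not tested further. The median difference of the 280 was 0.53 in WT and 0.48 in KO males, and that of the 368 was -0.45 in WT and -0.36 in KO males.

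Akr1d1 differed by 5.98, Fetub by 4.12 and Frzb by 2.55 between KO GDX and KO intact males, and Serpina6 by -1.94, Susd3 by -1.80 and Hmox1 by -1.32. Akr1c18 averaged 12.70 ± 0.07 in KO GDX and 8.70 ± 2.58 in KO intact arrays (SD, n = 4 each). It differed by 8.11 in WT males, where the intact level was too dim to read, and by 4.00 in KO males, and the difference between these effects was not called (adjusted p 0.181). Fa2h differed by 1.02 in KO males and was not called there (adjusted p 0.0867), and its 2 effects were not called different either (adjusted p 0.0731). St8sia5 fell in WT males while its KO value was 1.09 (limma adjusted p 0.0505, with 0.0731 for the difference of the effects).

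The difference between gonadectomised and intact males was itself called different between WT and KO for 4 genes of 14411 (0.0278%). The WT groups also differed in Cre and in Prkar1a alleles, and the KO groups did not. These cannot be told apart from a genotype effect on the response to gonadectomy. Acpp differed by 3.08 in WT males and by 0.65 in KO males (difference 2.42 ± 0.37, adjusted p 0.0117), where it averaged 6.29 ± 0.34 in KO GDX and 5.64 ± 0.29 in KO intact arrays (SD, n = 4 each). Bpifc, of a family of lipid-binding proteins, was too dim to read in all 8 WT arrays and differed by 3.14 in KO males (difference -2.79 ± 0.43, adjusted p 0.0117). Ceacam1, a cell adhesion molecule, differed by -0.02 in WT and by 1.48 in KO males (difference -1.50 ± 0.25, adjusted p 0.02). Eda, ectodysplasin, a ligand of the tumour necrosis factor family, had 6.68, 6.58, 6.78 and 6.70 in WT GDX arrays, against 7.20, 7.26, 7.30 and 7.35 in WT intact arrays. Its WT difference was -0.59 ± 0.08 (adjusted p 8.66e-05) and its KO difference 0.05 (difference of effects -0.64 ± 0.11, adjusted p 0.02). The calls of Ceacam1 and Eda were each lost in some fits that leave out 1 array (adjusted p up to 0.0793), those of Acpp and Bpifc in none. Those fits were without WT GDX array 2 and KO GDX arrays 3 and 4 and KO intact array 3 for both genes, WT GDX array 3 for Ceacam1, and WT intact arrays 3 and 4 and KO intact array 1 for Eda. The number of genes was 88 without KO GDX array 1, 30 without WT GDX array 1, 7 without KO intact array 2, and 2 without WT GDX array 2, KO GDX array 3 or 4 or KO intact array 3. At an unadjusted p under 0.05 in the same limma test there were 1361 of the 14411 genes. A gene not called in it is not thereby shown to respond alike in WT and KO males.

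**Figure D5:**
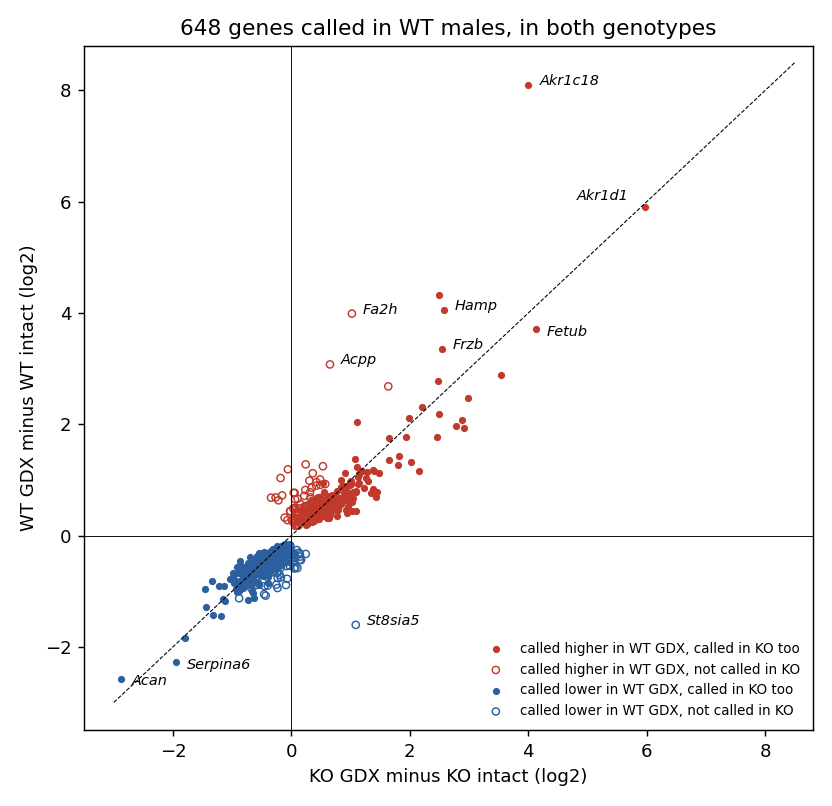
Difference between gonadectomised and intact males (log2) in WT (vertical axis) and in KO (horizontal axis) for the 648 genes called in WT, filled where called in KO males too. The dashed line marks equal effects, near which Akr1d1, Fetub, Acan and Serpina6 lie, while Acpp, Fa2h and Akr1c18 lie above it and St8sia5 lies apart.

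WT females were compared with the same WT intact arrays, so that their differences share these arrays with those of gonadectomy and are given side by side only. All WT females were Prkar1a fl/+ with Cre and all WT intact males fl/fl without it. Sex therefore cannot be told apart from Cre and genotype in the female differences. WT GDX minus WT intact was 5.91 for Akr1d1, 3.35 for Frzb and 3.08 for Acpp, beside a female minus intact male difference of 6.42, 5.36 and 0.89. It was -2.27 for Serpina6 and -1.44 for Hmox1, beside -2.36 and -1.54 in females. Akr1c18 and Fa2h in intact males, and Acan in WT GDX males and females, were too dim to read, so these 3 are given as levels. WT GDX males averaged 12.37 for Akr1c18, 8.65 for Fa2h and 4.42 for Acan. WT females averaged 11.12, 5.596 and 4.21, and WT intact males 4.26, 4.66 and 7.01, in the same order of genes.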

How the data were processed

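The deposited table holds log2 RMA values for 32202 probe sets on 24 arrays, background-corrected and normalized by the authors (RMA per the submitters' processing notes, which name no software). Of the probe sets 22943 have 1 gene symbol, 1731 several and 7528 none; the last 2 kinds were left out. The 21957 genes were each read from the probe set with the highest mean, and 14411 had a log2 value over 5 in at least 4 arrays. A limma model (version 3.58.1, R 4.3.3) of 6 group means over all 24 arrays gave each contrast (lmFit, eBayes, 18 residual and 3.41 prior degrees of freedom), adjusted by Benjamini-Hochberg over all genes tested. Replicates are called biological in the titles. Each p-value sets a difference against 1 spread per gene, pooled within the 6 groups of all 24 arrays and moderated by limma. The number of arrays limits the precision. On simulated data for the WT comparison (14411 genes), 35 of 50 genes changed by 0.5, 47 of 50 changed by 1, 49 of 50 changed by 2 and 50 of 50 changed by 4 were recovered, with 6 false among 187 calls. The simulated noise was normal, independent between genes and of equal spread in all arrays. Its rates therefore need not hold for the real arrays. Named genes were the 15 largest rises and 15 largest falls among called genes without overlap between the groups and with a full symbol, up to 4 members of each of 36 lists (625 entries, 495 tested), the checks Prkar1a, Cyp11b2 and Xist, and genes with a called difference between genotypes; the remaining genes named (Cyp17a1, Hsd17b1, Star, Cyp11a1, Cyp11b1, Cyp21a1, Fkbp5, Axin2, Pde8b, Jun, Gata4 and those near Cyp11b2, Prkar1a and Dlk1) were chosen after their values were seen. The members, lists and rule were chosen with earlier results of these data known. Chromosomes and sequences come from RefSeq (GRCm38.p6). No scan batches are used here.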

Additional observations from a re-analysis of the deposited data

Results flagged for a closer look

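Single arrays stood apart from the other 3 of their group in 10 of 250 groups tested by Dixon's ratio (4%; chance gives about 5%, or 1 group in 20). WT intact array 1 accounted for 6 of them: Susd3 at 5.71 (others 7.49 to 7.68), Mest at 8.24 (8.47 to 8.52), Apln at 5.89 (7.23 to 7.45), Lynx1 at 8.55 (9.57 to 9.68), the X-zone list mean at 6.23 (5.99 to 6.00) and the endothelial list mean at 7.72 (8.21 to 8.26). WT GDX array 3 was apart for St6galnac2 at 6.14 (6.84 to 6.94) and Kcnk1 at 8.11 (7.83 to 7.87), WT GDX array 4 for Scarb1 at 11.82 (11.51 to 11.56) and WT GDX array 2 for Nr0b1 at 5.37 (8.09 to 8.46).

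The gonadectomised minus intact difference differed by limma's interaction test between WT and KO males for Acpp (2.42, WT effect minus KO effect), Bpifc (-2.79), Ceacam1 (-1.50) and Eda (-0.64). Only the WT groups also differed in Cre and in Prkar1a alleles.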

How the results depend on the processing

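Of 66 named genes called in WT males, all kept their sign in the 8 fits that leave out 1 array. Those fits reuse the arrays that made the calls, so the kept sign is no separate support. Of the 66 genes, 43 kept their call in all 8 fits and 28 from the 8 WT arrays alone. With Cre as a term 1 gonadectomised array remains, with other Prkar1a alleles than the intact arrays, and its spread comes from the other groups. The WT count of 648 became 149 from the 8 WT arrays alone and 20 with Cre as a term (15 of them among the 648), and 292 to 788 when 1 array was left out; the 2 settings use fewer arrays or set 1 array against 4. The KO count of 2225 became 3599 with array weights, 879 with the medulla list mean as a term and 1374 to 2662 without 1 array. The 4 genes that differed between genotypes became 9 from the arrays compared alone, 45 with array weights, 2 with the medulla mean, 12 with the adipocyte mean and 2 to 88 without 1 array (88 without KO GDX array 1, 30 without WT GDX array 1). The cause of these changes was not tested. The Prkar1a difference turned to 0.00528 with array weights, 0.0484 with the medulla mean, 0.0884 with the adipocyte mean, 0.118 with Cre as a term, 0.0439 without WT GDX array 4 and 0.00796 without WT intact array 4, and ranged from -0.0715 to 0.0439 without 1 array. Titles share replicate numbers between groups. Deviations of same-numbered WT arrays correlated at 0.146, 0.171, 0.244 and 0.0934, and WT GDX array 3 correlated best with WT intact array 2 (0.415), so the numbers were not taken as pairs. With the number as a replicate block 588 genes were called in WT (558 of the 648), 2091 in KO males and 5 between genotypes. The other alternatives, a filter of 6 or none, renewed quantile normalization, the mean of a gene's probe sets and an intensity trend, gave 523 to 675 WT calls. Counts for the Dlk1 to Dio3 stretch under each alternative were added after seeing the data.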
